A study of Bos taurus with 8 samples.

Results

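Genes of hepatic glycogen synthesis and breakdown were described in the liver of fetal calves from poorly and richly fed dams. They were GYS2, GBE1, PGM1, PYGL, PYGB, PHKA2, PHKG2, PPP1R3B and PPP1R3C, 9 genes in all, and they were chosen as a pathway, by gene name. A probe was taken as theirs when its RefSeq accession belonged to one of the 9 genes, which gave 19 probes of the 43637 measured, and 9 of the 12603 genes matched. All 19 probes were well above background on all 8 arrays. The samples were Japanese Black fetuses at 8.5 months post-conception. The low-nutrition (LN) group was 4 fetuses (L5, L6, L8 and L9) of dams fed 60% of their overall nutritional requirement during gestation, and the high-nutrition (HN) group was 4 fetuses (L1, L2, L3 and L10) of dams fed 120%. By the study's methods, all dams were inseminated with male-sorted semen of a single sire, and the lightest LN fetuses and the heaviest HN fetuses were hybridised, so the groups also differed by choice in body weight. No group fed the full requirement was included.

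Glycogen is the branched glucose store that the liver of a late-gestation fetus accumulates and draws on at birth. For its synthesis, phosphoglucomutase interconverts glucose 6-phosphate and glucose 1-phosphate, glycogen synthase adds UDP-glucose units to the chain, and the branching enzyme sets the branches. For its breakdown, glycogen phosphorylase releases glucose 1-phosphate after phosphorylase kinase has activated it. Protein phosphatase 1, held on the glycogen particle by targeting subunits such as PPP1R3B and PPP1R3C, reverses the phosphorylation and so favours synthesis.

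Each value below is a log2 signal, the log2 of a background-subtracted spot intensity after quantile normalization between arrays, and each difference is the LN mean minus the HN mean on that scale. Where a gene had several probes, the brightest represented it. The LN arrays lay on 1 slide and the HN arrays on another, so slide and nutrition cannot be told apart for any value given here. Of 8 detected hepatocyte markers (ALB, APOA1, TTR, TF, AFP, AHSG, FGB and SERPINA1), 0 reached an unadjusted limma p of 0.05, and their summed signal lay between 20.93 and 20.99 in LN and between 20.88 and 20.97 in HN. The brightest of them lay at the top of every array, where quantile normalization gives all arrays the same values. TF, for example, read 18.42 in LN fetus L8 and in HN fetuses L1 and L2. The sum is thus held nearly equal by the normalization and does not measure hepatocyte content. Libraries L6, L9 and L3 stood apart on the whole array: on the first principal component of all detected probes, which held 33.0% of the variance, they lay at 0.31, 0.27 and 0.22 and the other 5 fetuses between -0.20 and -0.089. LN fetus L5 carried far more erythroid signal than the rest, with a summed signal of 7 detected erythroid markers of 17.09 against 12.94 to 14.98 in the other 7 fetuses. Summed over 8 detected neutrophil markers, the signal was 13.23 to 14.79 in LN and 12.36 to 13.66 in HN, and 7 of these 8 markers had a higher mean in LN. Of the 8, 3 (CATHL4, MPO and CATHL2) reached an unadjusted limma p of 0.05, against 6.05% of all detected genes. HN fetus L10 stood apart in skeletal muscle signal, with a sum over 3 detected markers of 9.97 against 8.18 to 9.12 in the other 7 fetuses. MYL1 at 8.87 and MYH7 at 7.64 were both highest in L10, while CKM and TNNT3 were not detected. The third detected marker, ACTA1, did not set L10 apart. It read 8.39 there and between 7.87 (LN fetus L6) and 8.97 (LN fetus L8) in the other fetuses. Of the detected markers of the other cell types, the mean was higher in LN for 7 of 7 erythroid, 1 of 6 macrophage, 4 of 6 endothelial, 0 of 6 stellate and fibroblast and 0 of 3 skeletal muscle markers, and 0 of all markers passed an adjusted limma p of 0.05.

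Between LN and HN, the largest difference among the 9 genes was that of the targeting subunit PPP1R3B, whose mean signal was 1.82-fold that of HN, while the synthase GYS2 and the branching enzyme GBE1 had nearly equal means. The phosphorylases PYGL and PYGB and the phosphorylase kinase subunits PHKA2 and PHKG2 all had a lower mean in LN, with log2 differences between -0.31 and -0.12 whose 95% intervals all included 0. Of the 9 genes, 0 passed an adjusted limma p of 0.05 over all detected probes (lowest adjusted p = 0.760), and 1, PPP1R3B, reached an unadjusted limma p of 0.05. The unadjusted threshold was reached by 6.05% of the 10860 genes with a detected probe, 3.30% with a higher and 2.75% with a lower mean in LN, and 0 of these genes passed the adjusted threshold. The values of LN and HN did not overlap for 1 of the 9 genes, again PPP1R3B, against 4.14% of all detected genes. By mean, 5 genes were higher and 4 lower in LN, with a median difference of 0.011 over the 9 genes and of 0.0075 over all detected genes. The median over the 9 genes has no settled sign: it was negative in 9 of 19 alternatives and lay between -0.12 (without HN fetus L10) and 0.047 (without LN fetus L8) with a fetus omitted. In whole liver, fewer cells of a type and less RNA per cell cannot be told apart in these values.

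**Figure D1:**
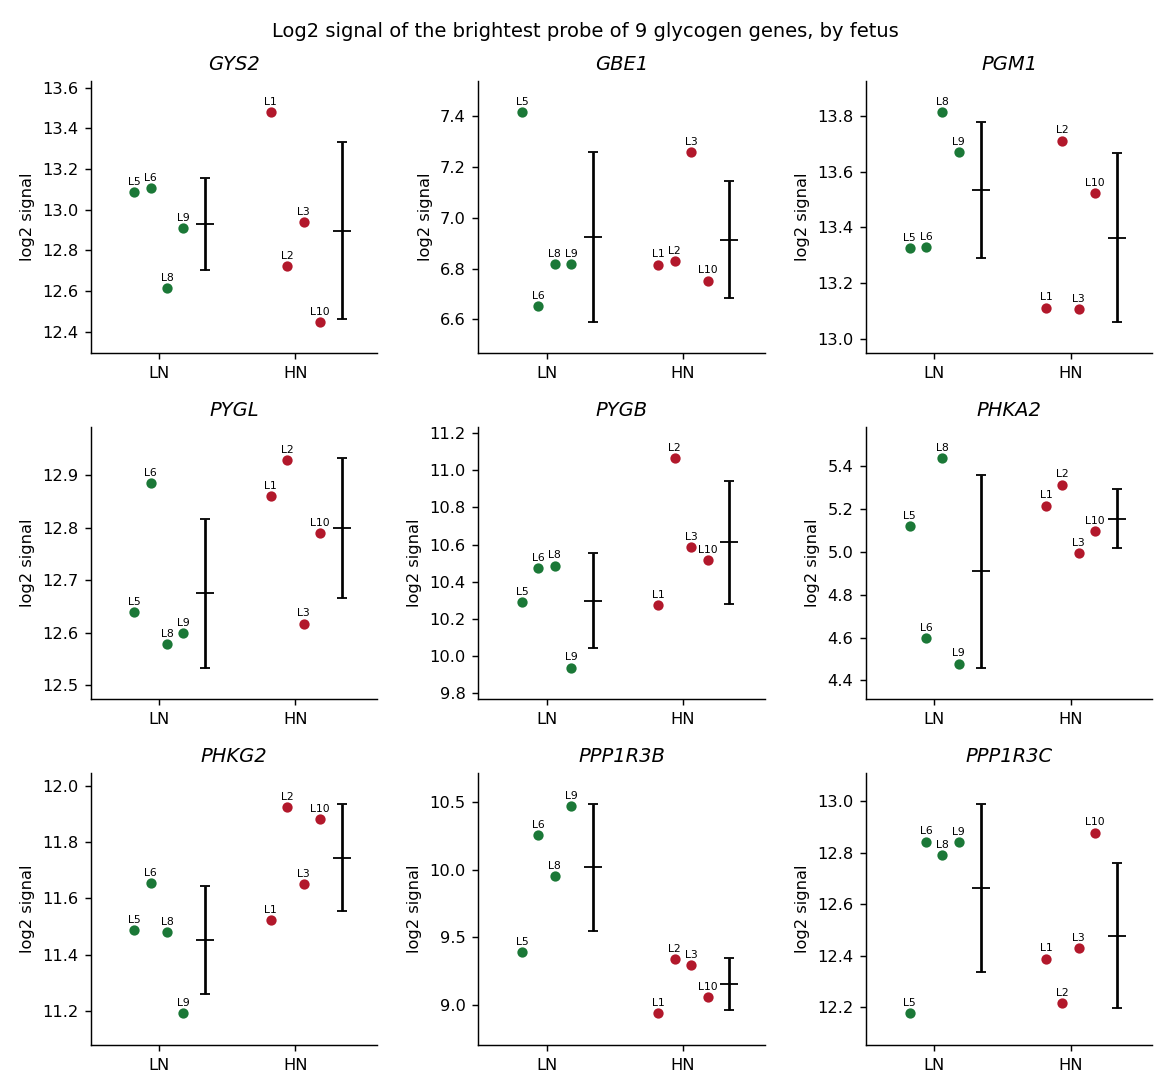
Log2 signal (vertical axis) of the brightest probe of each of the 9 genes in the 4 LN (green) and 4 HN (red) fetuses, labelled by fetus, with the mean and SD of each group in black and a separate vertical scale in each panel. The points of LN and HN are separate for PPP1R3B, between 9.39 and 10.47 in LN and between 8.94 and 9.34 in HN, and they overlap in the other 8 panels.

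GYS2 encodes the liver isoform of glycogen synthase, which catalyses the regulated step of synthesis. Its log2 signal was 13.09, 13.10, 12.62 and 12.91 in LN fetuses L5, L6, L8 and L9, and 13.48, 12.72, 12.94 and 12.45 in HN fetuses L1, L2, L3 and L10. The highest and the lowest fetus were both HN, and every LN fetus lay between them. The difference was 0.032 (95% interval -0.48 to 0.54, limma adjusted p = 0.986, exact permutation p = 0.943). A dimmer probe of GYS2 gave a difference of 0.091 (95% interval -0.49 to 0.67) and ordered the fetuses similarly, with a correlation of 0.88 between both probes over the 8 fetuses. Both intervals are wide against the differences, so equality of LN and HN is not shown.

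GBE1 encodes the glycogen branching enzyme and was represented by a single probe. Its log2 signal was 7.42, 6.65, 6.82 and 6.82 in LN and 6.82, 6.83, 7.26 and 6.75 in HN, in the same order of fetuses. Within each group a single fetus was high, L5 in LN and L3 in HN, and the other 6 fetuses lay between 6.65 and 6.83. The difference was 0.011 (95% interval -0.43 to 0.45, limma adjusted p = 0.994). Leaving out LN fetus L5 gave -0.15, and leaving out HN fetus L3 gave 0.13. The fetuses with the most erythroid signal were these same fetuses, L5 at 17.09 and L3 at 14.98. GBE1 and the summed erythroid signal had r = 0.76 (exact permutation p = 0.0271) and rho = 0.38 (p = 0.360), with r = 0.49 without the 2 fetuses farthest from the median. Over the 63 relations of a glycogen gene with a marker list, the p values adjusted by Benjamini-Hochberg were 0.386 for r and 1 for rho, and with the erythroid sum as a covariate the GBE1 difference turned to -0.17. The part of erythroid cells in the GBE1 signal was not tested beyond these values.

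PGM1, the main phosphoglucomutase, had a log2 signal of 13.33, 13.33, 13.81 and 13.67 in LN and of 13.11, 13.71, 13.11 and 13.52 in HN. HN fetuses L1 and L3 were the lowest of the 8, and HN fetuses L2 and L10 lay among the LN fetuses. The difference was 0.17 (95% interval -0.25 to 0.60, limma adjusted p = 0.896). With a fetus omitted it lay between 0.078 (LN fetus L8) and 0.29 (HN fetus L2), and with the neutrophil sum as a covariate it was 0.074. The second of its 3 probes followed the brightest closely over the fetuses (r = 0.98) and gave 0.11, while the dimmest, at 6.38 to 7.75, followed it weakly (r = 0.34) and gave 0.035. PGM1 was lower where the summed signal of 6 macrophage markers was higher, with r = -0.83 (exact permutation p = 0.0116) and rho = -0.86 (p = 0.0107), and r = -0.94 without the 2 fetuses farthest from the median. Over the 63 relations the adjusted p values were 0.366 and 0.242, and the part of macrophages in the PGM1 signal was not tested.

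PPP1R3B encodes the glycogen-targeting subunit of protein phosphatase 1 that is abundant in liver, also called GL. By its brightest probe the log2 signal was 9.39, 10.26, 9.96 and 10.47 in LN fetuses L5, L6, L8 and L9, and 8.94, 9.34, 9.30 and 9.06 in HN fetuses L1, L2, L3 and L10. Every LN fetus lay above every HN fetus, with L5 close to the HN fetuses and the other 3 LN fetuses well above them. The mean was 10.02 ± 0.47 in LN and 9.16 ± 0.19 in HN (SD, n = 4 fetuses each). LN minus HN came to 0.86 (standard error 0.23, 95% interval 0.34 to 1.38), with an unadjusted limma p of 0.00484, an adjusted p of 0.760 and an exact permutation p of 0.0286, the smallest that 4 against 4 can give. By unadjusted p it ranked 56 of 10860 genes.

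Both other probes of PPP1R3B gave a difference of the same sign and of smaller size. The probe of middle brightness read 7.82, 8.25, 8.51 and 8.27 in LN and 7.93, 7.59, 7.85 and 7.36 in HN, a difference of 0.53 (standard error 0.19, limma adjusted p = 0.760). The dimmest read 7.19, 7.34, 7.79 and 7.69 in LN and 7.28, 6.85, 6.97 and 6.70 in HN, a difference of 0.55 (standard error 0.18, limma adjusted p = 0.760). For both of these probes LN fetus L5 fell below HN fetus L1, so that the groups overlapped, and L8 rather than L9 was the highest. Their exact permutation p values were 0.0857 for the probe of middle brightness and 0.0571 for the dimmest. Of the 19 probes of the 9 genes, 3 reached an unadjusted limma p of 0.05, all of them probes of PPP1R3B, against 6.32% of the 33439 detected probes. Separate LN and HN values were seen in 1 of the 19 probes, against 4.13% of detected probes.

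When any single fetus was omitted, the PPP1R3B difference stayed between 0.71 (without LN fetus L9) and 1.07 (without LN fetus L5), and its unadjusted limma p stayed below 0.05. The brightest probe of PPP1R3B moved with the neutrophil markers over the fetuses: within LN both were lowest in L5 and then higher in L8, L6 and L9, and within HN both were lower in L1 and L10 than in L3 and L2. The correlation of the brightest probe with the summed neutrophil signal was r = 0.90 (exact permutation p = 0.00176) and rho = 0.90 (p = 0.00456), with r = 0.84 without the 2 fetuses farthest from the median and 0.86 after centring within each group. Adjusted over the 63 relations, these p values were 0.111 and 0.242, and no correlation is given within a slide, which held 4 fetuses. The other probes of PPP1R3B had r = 0.65 and r = 0.61 with the same sum, and in both of them HN fetus L1, low in neutrophil signal, was the highest HN fetus. With the macrophage sum the brightest probe had r = -0.59 (exact permutation p = 0.126) and rho = -0.74 (p = 0.0458), with adjusted p values of 0.722 and 0.518 and r = -0.72 without the 2 farthest fetuses. With the neutrophil sum as a covariate, a choice made after seeing the data, the PPP1R3B difference was 0.44 and did not reach an unadjusted limma p of 0.05 (its value was 0.0555), and with the erythroid sum as the covariate it was 1.00 and did (0.00329). Among the neutrophil markers, CATHL4 differed by 1.78 and MPO by 1.32, both without overlap between LN and HN, S100A8 by 0.89 and LTF by -0.22, each with a limma adjusted p over 0.05. The part of neutrophils in the PPP1R3B signal was not tested beyond these values.

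PPP1R3C, a second targeting subunit of protein phosphatase 1, also called PTG, had values that overlapped between LN and HN. Its log2 signal was 12.18, 12.84, 12.79 and 12.84 in LN and 12.39, 12.22, 12.43 and 12.88 in HN. Fetuses L6, L8, L9 and L10 lay together near the top, and L5, L1, L2 and L3 lay lower, so each group held fetuses of both kinds. The difference was 0.19 (95% interval -0.27 to 0.64, limma adjusted p = 0.896). With a fetus omitted it lay between 0.098 (HN fetus L2) and 0.35 (LN fetus L5). PPP1R3C and the summed signal of 6 endothelial markers had r = 0.76 (exact permutation p = 0.0232) and rho = 0.83 (p = 0.0154), with adjusted p values of 0.386 and 0.242 over the 63 relations and r = 0.66 without the 2 fetuses farthest from the median. The part of endothelial cells in the PPP1R3C signal was not tested. Between both targeting subunits the correlation over the 8 fetuses was r = 0.56 (exact permutation p = 0.144) and rho = 0.21 (p = 0.619), and r was 0.20 without the 2 fetuses farthest from the median of PPP1R3B. Their p values adjusted over 36 pairs were 0.693 and 0.962.

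**Figure D2:**
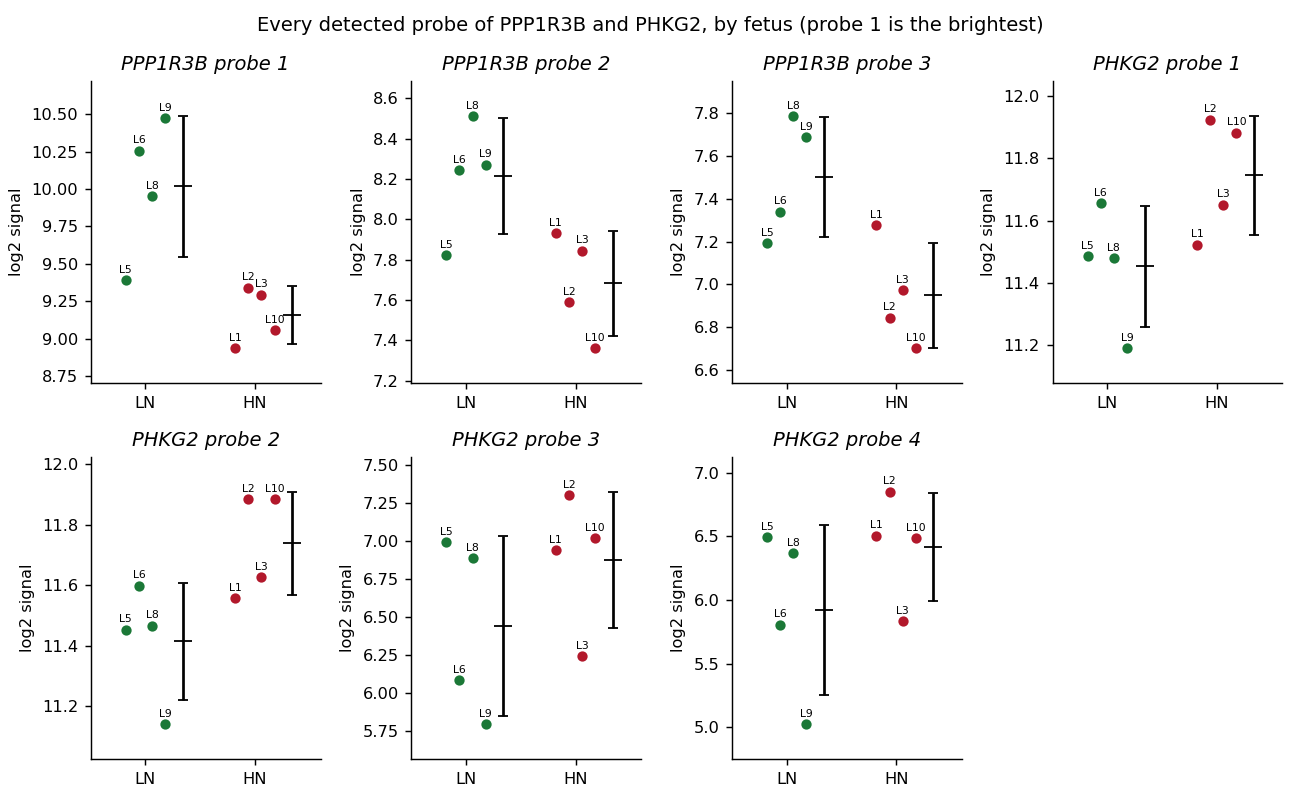
Log2 signal (vertical axis, a separate scale in each panel) of every detected probe of PPP1R3B and PHKG2 in LN (green) and HN (red) fetuses, with mean and SD in black, numbered from the brightest probe of each gene. The 3 PPP1R3B probes all have the higher mean in LN, while PHKG2 probes 3 and 4 are low in fetuses L6, L9 and L3 of both groups.

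PYGL encodes the liver isoform of glycogen phosphorylase, which releases glucose 1-phosphate from the chain ends. By the brightest of its 3 probes, the log2 signal was 12.64, 12.88, 12.58 and 12.60 in LN and 12.86, 12.93, 12.62 and 12.79 in HN. HN fetus L3 lay among the lower LN fetuses and LN fetus L6 among the higher HN fetuses. The difference was -0.12 (95% interval -0.41 to 0.16, limma adjusted p = 0.886), and the other probes gave -0.15 and -0.18. With a fetus omitted it lay between -0.19 (LN fetus L6) and -0.081 (HN fetus L2). PYGL and the summed signal of 6 stellate and fibroblast markers had r = 0.70 (exact permutation p = 0.0401) and rho = 0.48 (p = 0.243), with adjusted p values of 0.421 and 1 and r = 0.47 without the 2 fetuses farthest from the median, and the part of these cells was not tested. The SD between fetuses of a group was at most 0.14 for this probe, the narrowest spread in both groups among the brightest probes of the 9 genes.

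PYGB encodes the isoform of glycogen phosphorylase first known from brain, which other tissues also express. Its single probe read 10.29, 10.47, 10.49 and 9.94 in LN and 10.28, 11.06, 10.59 and 10.52 in HN. HN fetus L2 was the highest and LN fetus L9 the lowest, and HN fetus L1 lay among the LN fetuses. The difference was -0.31 (95% interval -0.76 to 0.13, limma adjusted p = 0.820), as reported the largest in size after PPP1R3B. With a fetus omitted it lay between -0.43 (HN fetus L1) and -0.16 (HN fetus L2). The rank changed with the setting. With the mean over a gene's probes PHKG2 came to -0.39 and PYGB to -0.31, and after scaling to the 75th percentile PHKA2 came to -0.43 and PYGB to -0.30. The muscle phosphorylase PYGM was well above background on 0 of 8 arrays by all 3 of its probes, and so was the muscle targeting subunit PPP1R3A by its single probe.

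PHKA2 and PHKG2 encode the liver alpha and the catalytic gamma subunits of phosphorylase kinase. PHKA2 had a single probe, dimmer than the brightest probe of any other of the 9 genes. It read 5.12, 4.60, 5.44 and 4.48 in LN and 5.22, 5.31, 5.00 and 5.10 in HN. In LN the fetuses fell into a higher and a lower pair, L5 and L8 against L6 and L9, and L3 was the lowest HN fetus. The difference was -0.25 (95% interval -0.74 to 0.24, limma adjusted p = 0.866). It moved widely with a fetus omitted, from -0.42 (LN fetus L8) to -0.14 (LN fetus L6) and -0.10 (LN fetus L9). The PHKA2 difference was -0.43 after scaling to the 75th percentile, -0.099 after normexp background correction and -0.030 with the neutrophil sum as a covariate. The low fetuses were those that stood apart on the whole array, and the correlation of PHKA2 with the first principal component was -0.89 over the 8 fetuses. With that component as a covariate, the PHKA2 difference was -0.13. PHKA2 and the endothelial sum had r = -0.75 (exact permutation p = 0.0306) and rho = -0.83 (p = 0.0154), with adjusted p values of 0.386 and 0.242 over the 63 relations and r = -0.68 without the 2 farthest fetuses, and the part of endothelial cells in the PHKA2 signal was not tested.

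PHKG2 had 4 probes. The brightest read 11.49, 11.66, 11.48 and 11.19 in LN and 11.52, 11.92, 11.65 and 11.88 in HN, a difference of -0.29 (95% interval -0.63 to 0.040, limma adjusted p = 0.787, exact permutation p = 0.0857). HN fetuses L2 and L10 were the highest, LN fetus L9 was the lowest, and LN fetus L6 lay above HN fetuses L1 and L3. The second probe, almost as bright, followed it with r = 0.99 and gave -0.32 (unadjusted limma p = 0.0502, adjusted p = 0.785). The 2 dim probes gave -0.44 and -0.50 with standard errors of 0.32 and 0.34, and were low in fetuses L6, L9 and L3, with correlations of -0.95 and -0.87 with the first principal component against -0.34 for the brightest probe. The brightest probe reached an unadjusted limma p of 0.05 under 3 alternatives, with a value of 0.0338 after normexp background correction, 0.0481 when LN fetus L6 was omitted and 0.0480 when HN fetus L1 was. All 4 probes gave a lower mean in LN.

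Of 29 other genes of the pathway, listed by hand, 18 had a matched probe and 16 a detected one. GYG2, PHKA1, PHKB, PGM2, PPP1R3D, PPP1R3E, PPP1R3G, NHLRC1, EPM2AIP1, STBD1 and CALM2 were without a matched probe and are not analysed here. Of the 16, 6 had a higher and 10 a lower mean in LN, with a median difference of -0.091 against 0.0075 over all detected genes. That median was -0.0080 without HN fetus L1, -0.017 without LN fetus L5 and -0.012 with the erythroid sum as a covariate. By limma, 0 passed an adjusted p of 0.05, and 1, CALM3, lower in LN, reached an unadjusted p of 0.05, a threshold reached by 6.05% of all detected genes. By their brightest probes LN and HN overlapped for each of the 16, while 4.14% of all detected genes did not overlap.

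CALM3, one of the genes for calmodulin, which is a subunit of phosphorylase kinase and of many other enzymes, read 11.68, 11.55, 11.61 and 11.55 in LN and 11.63, 11.91, 11.97 and 12.03 in HN. The difference was -0.29 (standard error 0.12, limma adjusted p = 0.785), with HN fetus L1 among the LN fetuses. Its 3 dimmer probes gave -0.095, 0.0023 and -0.14, so that the size and the direction depended on the probe. CALM3 did not reach an unadjusted limma p of 0.05 under 11 of 19 alternatives, among them the omission of any single fetus other than HN fetus L1, where the difference lay between -0.32 and -0.24. PPP1CC, a catalytic subunit of protein phosphatase 1, was singled out after its values were seen: its brightest probe differed by 0.14 with overlap, while 2 of its 3 other probes did not overlap and differed by 0.27 and 0.41 (limma adjusted p = 0.787 and 0.783). They were the 2 probes without overlap among the 44 detected probes of the other glycogen genes, near the share of 4.13% over all detected probes. The remaining 14 genes, among them the muscle-type synthase GYS1, the primer GYG1, UGP2, which makes UDP-glucose, and the synthase kinases GSK3A and GSK3B, had differences between -0.22 and 0.14, and their groups overlapped.

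**Figure D3:**
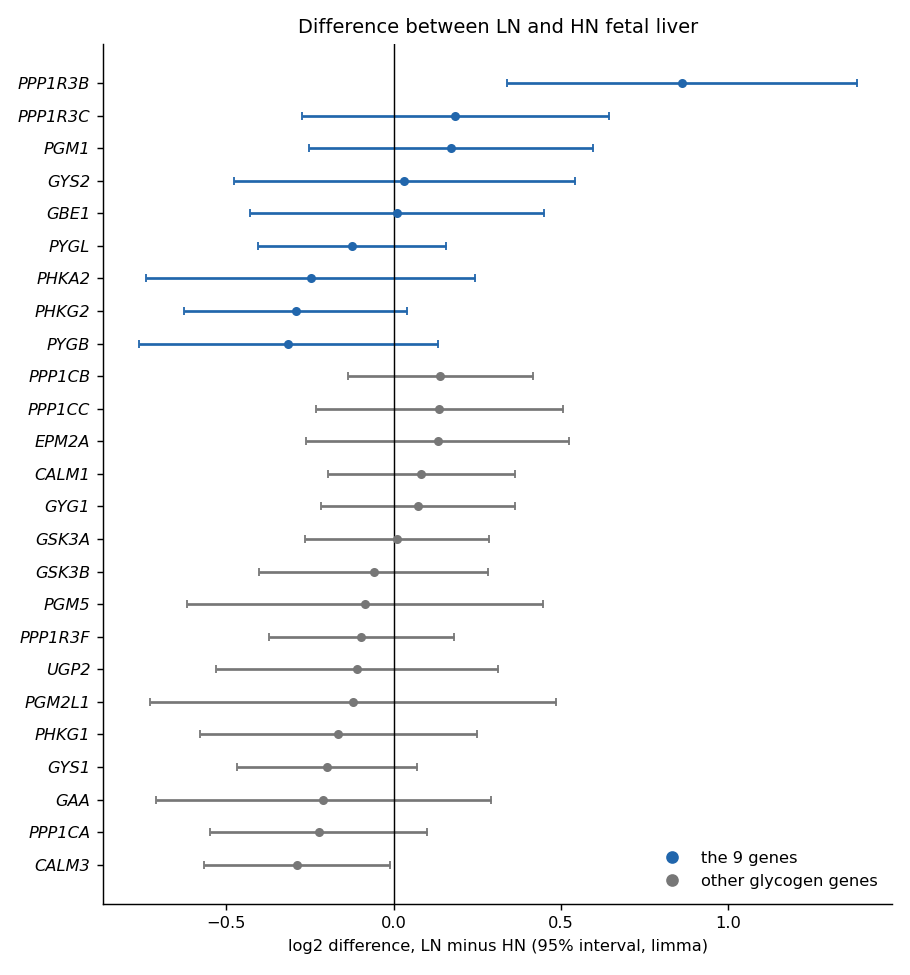
Log2 difference between LN and HN (horizontal axis, LN minus HN) with its 95% limma interval for the 9 genes (blue) and the 16 other detected glycogen genes (grey), each by its brightest probe. The intervals are not adjusted for the number of genes, and those of PPP1R3B (0.34 to 1.38) and CALM3 (-0.57 to -0.012) exclude 0.

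Over the 8 fetuses, the 9 genes did not vary as a single group. Of 36 pairs, 14 had a positive correlation, with a median r of -0.15 and a range from -0.71 to 0.87, and 0 passed an adjusted p of 0.05 by r or by rho (lowest adjusted p 0.258 and 0.503, exact permutation). At an unadjusted p of 0.05 by r there were 2 pairs. PYGB and PHKG2 had r = 0.87 (exact permutation p = 0.00717) and rho = 0.74 (p = 0.0458), with r = 0.57 without the 2 fetuses farthest from the median and 0.82 after centring within each group. GYS2 and PGM1 had r = -0.71 (exact permutation p = 0.0463) and rho = -0.69 (p = 0.0694), with r = -0.77 without the 2 farthest fetuses and -0.78 after centring. GYS2 was highest in HN fetus L1 and low in L8, L2 and L10, which were 3 of the 4 fetuses highest in PGM1. No correlation within a group is given, since each group and slide held 4 fetuses, fewer than the 6 set as a minimum.

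**Figure D4:**
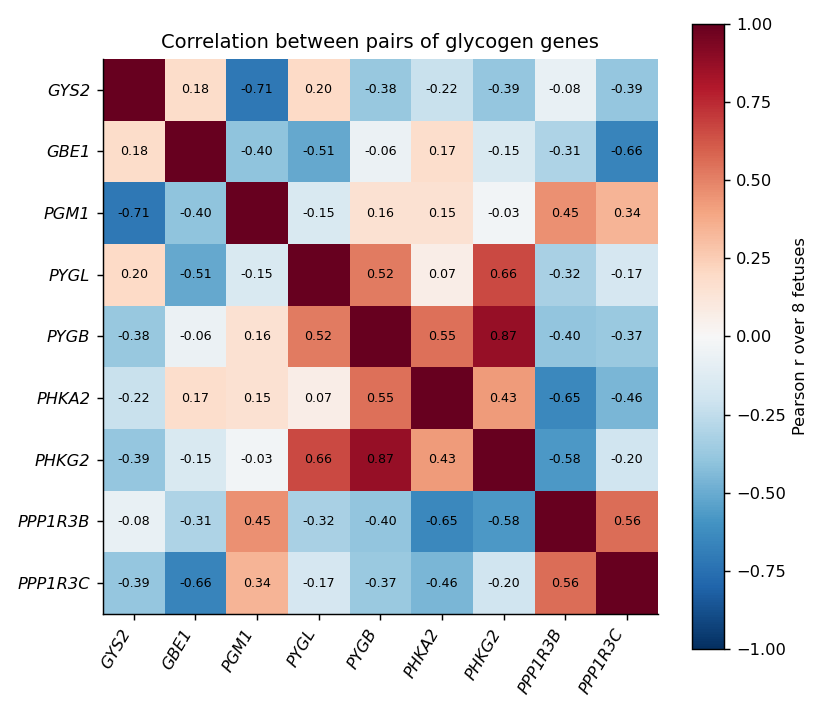
Pearson correlation over the 8 fetuses between each pair of the 9 genes, by their brightest probes, with blue for negative and red for positive values. The strongest positive value is that of PYGB with PHKG2 (0.87) and the strongest negative that of GYS2 with PGM1 (-0.71), and 0 of 36 pairs passed an adjusted p of 0.05.

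**Figure D5:**
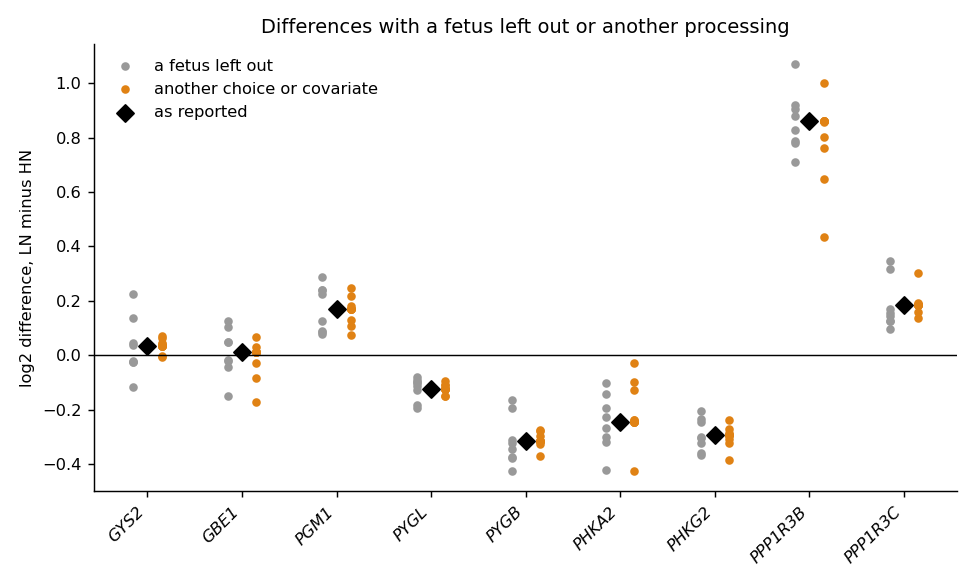
Log2 difference (vertical axis, LN minus HN) of the 9 genes as reported (black), with a fetus left out (grey) and with another processing choice or covariate (orange). PPP1R3B stays above 0 and PYGL, PYGB, PHKA2 and PHKG2 stay below 0 in every setting drawn, while GYS2 and GBE1 lie on both sides of 0.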

How the data were processed

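The livers of 4 LN and 4 HN fetuses were each measured on 1 array in 1 colour, by the labels; the series' design text speaks of RNA pooled by group, and the arrays were treated as fetuses. The authors deposited spot intensities from Feature Extraction 11.0.1.1, background-subtracted within the array, and a table of log2 values, quantile normalized in GeneSpring GX by the methods. For 31030 of its 31068 probes, quantile normalization of the intensities gave the table's values to within 0.001.

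From the intensities, control spots and 16 probes marked as outliers were left out, and log2 values of 43637 probes were quantile normalized. Detection required a spot well above background on 4 or more of the 8 arrays, which 33439 probes met. Between 32635 and 34369 of 43803 spots per array were well above background and 0 were saturated. Accessions of 26740 probes matched genes of RefSeq (ARS-UCD2.0). The array was annotated on UMD 3.1, so no coordinates are given. Group means were tested in limma 3.58.1 (R 4.3.3), 2-sided, with Benjamini-Hochberg adjustment over all detected probes, and with exact permutation of the 8 fetuses. Functions were tested on simulated data.

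The genes and lists were chosen with earlier results of these data known. A further gene of the pathway list is not reported here. Of the other glycogen genes, those with an unadjusted limma p of at most 0.05, without overlap, or with a difference of at least 1, by the brightest probe, were named, and PPP1CC, GYS1, GYG1, UGP2, GSK3A, GSK3B and PGM2L1 were named outside this rule, PPP1CC after its values were seen. Marker lists covered hepatocytes, erythroid cells, neutrophils, macrophages, endothelium, stellate cells and fibroblasts, and skeletal muscle. Alternatives were scaling to the 75th percentile, normexp (offset 50) from median spot and background signals, the authors' log2 table, no filter, detection required on all 8 arrays, a trended and robust eBayes, slide position as a block, the mean over a gene's probes, and each fetus left out. Covariates (first principal component, summed neutrophil and erythroid signal) were added after seeing the data.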

Additional observations from a re-analysis of the deposited data

Results flagged for a closer look

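In groups of 4 fetuses, a fetus was marked when its gap to the nearest other fetus exceeded Dixon's 95% critical value as a share of the group's range, which chance passes in about 5% of groups. Over 50 groups of the 25 detected glycogen genes, 4 were marked. PPP1R3C was low in LN fetus L5, at 12.18 with the nearest at 12.79 (gap ratio 0.921). GBE1 was high in HN fetus L3, at 7.26 with the nearest at 6.83 (0.846), PPP1CC high in LN fetus L5, at 11.65 with the nearest at 11.20 (0.842), and PGM2L1 low in LN fetus L9, at 4.53 with the nearest at 5.28 (0.833). Without the fetus concerned the difference was 0.35 for PPP1R3C and 0.13 for GBE1.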

How the results depend on the processing

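In the 19 alternatives, 0 of the 9 genes passed an adjusted limma p of 0.05, and 0 of 36 pairs did in the 14 alternatives run for correlations. PPP1R3B, PPP1R3C and PGM1 kept a higher and PYGL, PYGB, PHKA2 and PHKG2 a lower mean in LN in all 19. The number of the 9 genes with an unadjusted limma p of at most 0.05 was 2 with normexp, 0 with the neutrophil sum as a covariate, and 1 to 2 with each fetus left out (2 without LN fetus L6 or HN fetus L1). For the other glycogen genes it was 1 as reported, 0 with scaling to the 75th percentile, position as a block, the mean over probes or the neutrophil sum, 2 with normexp or the first principal component, and 0 to 1 with each fetus left out (1 without HN fetus L1). With a fetus left out GYS2 lay between -0.12 and 0.23 and GBE1 between -0.15 and 0.13. GYS2 became -0.0069 with normexp, -0.0023 with the first principal component, -0.020 without LN fetus L5, -0.026 without LN fetus L6 or HN fetus L2 and -0.12 without HN fetus L10. GBE1 became -0.084 after 75th-percentile scaling, -0.028 with normexp, -0.17 with the erythroid sum, and -0.15, -0.022, -0.017 and -0.043 without LN fetus L5 and HN fetuses L1, L2 and L10. The cause was not tested. No paired analysis was possible, because by the study's methods LN and HN were fetuses of different dams, assigned at random to the diets. The block on slide position pairs only arrays that lay at the same place on their slides. The number of arrays, 4 against 4, limits the precision.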
